A study of Homo sapiens with 6 samples.

Results

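The genes described here make and move cholesterol. They comprise 18 of the enzymes on the way from acetyl-CoA to cholesterol, 5 genes of the SREBP switch that controls them, 4 genes of fatty acid synthesis, 5 genes of cholesterol transport, and IDH1, the isocitrate dehydrogenase of the cytosol, which makes NADPH. Members were taken by matching Ensembl gene IDs to these symbols, and they are 33 of the 38900 genes in the table. Values are normalized counts, and the 13928 genes whose mean over the libraries reached 10 were tested. All 33 members were among them, so none was lost to that filter. IDH1 was included because it was lower after treatment, so its values are given as a description with no test. The pathway genes were also chosen with results of this comparison known, so their counts describe them and support nothing further.

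RNA was sequenced from hTERT RPE1 cells, an established human retinal pigment epithelial line immortalised with telomerase. All cells were confluent at 100% and had been held so for 5 days, which makes them quiescent. The medium was then renewed, with combretastatin A4 (CA4) added at 100 nM in the treated group and 0.1% of its solvent DMSO in the control group. PolyA RNA was sequenced after 6 h. CA4 binds tubulin and takes microtubules apart. There were 3 libraries of each group. Nothing in the labels says that the numbered replicates were separate cultures, so p-values measure only the spread between these libraries, which may be technical.

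Cells make cholesterol from acetyl-CoA through mevalonate, farnesyl diphosphate, squalene and lanosterol, and much of the work is done in the endoplasmic reticulum with NADPH as the reductant. When sterol in that membrane runs low, SCAP carries the SREBP proteins to the Golgi, where they are cut, and the released part enters the nucleus and switches on the genes of sterol and fatty acid synthesis. When sterol is plentiful, the INSIG proteins hold SCAP back, and oxysterols act through the LXR receptors on export genes such as ABCA1 and ABCG1.

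Each library held between 19524936 and 22538004 recovered reads. Over all tested genes 275 fell and 413 rose, which is 1.97% and 2.97% of them (limma, Benjamini-Hochberg adjusted p below 0.05). Of 12 markers of retinal pigment epithelium, 8 had a mean of 10 or more. Among these KRT8, KRT18, MITF and OTX2 had the highest levels. BEST1, RPE65, PMEL and SERPINF1 were lower, with means over all libraries of 74.9, 21.8, 17.1 and 15.7. RLBP1, TYR, TYRP1 and DCT lay under 10 in every library, and DCT was at 0. Markers of the pigmented or mature tissue were thus detected in part. The summed level of the 12 ran from 24193 to 26621 in DMSO and from 27033 to 32206 in CA4. All 4 endothelial markers (PECAM1, VWF, CDH5 and TIE1) were detected. Their sum ran from 1131 to 1712 in DMSO and from 1544 to 3673 in CA4, with the highest value in CA4 replicate 3. Of 4 leukocyte markers CD68 made up nearly the whole sum, which ran from 738 to 939.6 in DMSO and from 541 to 747 in CA4, and CD3E was at 0. The retinal sum was higher in every CA4 library than in any DMSO library, but most of it came from KRT8 and KRT18, keratins of simple epithelia, and neither passed the test (limma adjusted p 0.526 and 0.0849). The lineage factors went the other way. OTX2 lay at 423 to 630.1 in DMSO and fell to 226 to 255 after CA4 (-1.11 on the log2 scale, limma adjusted p 0.0158), while MITF ran from 620.0 to 1085 in DMSO and from 322 to 647 in CA4 (-0.98, 0.100). The part of these markers in the results was not tested. In bulk RNA, fewer cells of a type and less RNA per cell cannot be told apart.

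After CA4 most enzymes of sterol synthesis had lower levels. SCD, FDFT1, SC5D and LSS were the tested members called lower (limma adjusted p below 0.05). In counts of genes, fell and rose stand for such calls here and below. ACAT2 had the lowest log2 difference of the members (-1.34) but was not called (limma adjusted p 0.0576). Of the 32 members other than IDH1, 28 had a negative log2 difference, against 51.1% of all tested genes. Their median difference was -0.43, against -0.0082 over all tested genes. By limma 4 of the 32 fell (percent called lower among all tested genes, 1.97%) and 0 rose (2.97%). No member had a positive difference at an unadjusted p below 0.05, and by edgeR and DESeq2 the number that rose was also 0. Other settings gave other counts of members called lower, with DESeq2 on recovered reads at 15 (5.07% of all tested genes), scaling to the same total at 10 (3.76%) and edgeR at 4 (1.82%). Without limma's variance trend 0 members passed (0.373% of all tested genes were lower). With 1 library left out, 0 passed without CA4 replicate 1 (0.452%), CA4 replicate 3 (0.438%) or DMSO replicate 3 (0.223%), and 1 passed without CA4 replicate 2 (1.47%). On omitting DMSO replicate 1 the number was 2 (2.79%), and on omitting DMSO replicate 2 it was 4 (0.266%). At the unadjusted level 19 of the 32 were lower, against 11% of all tested genes. In 16 of the 32 every CA4 library lay below every DMSO library, as in 13.4% of all tested genes, and in 0 every CA4 library lay above, as in 14.3%. The fold change is on the scale log2(normalized count + 1) throughout, and is given as CA4 minus DMSO.

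**Figure D1:**
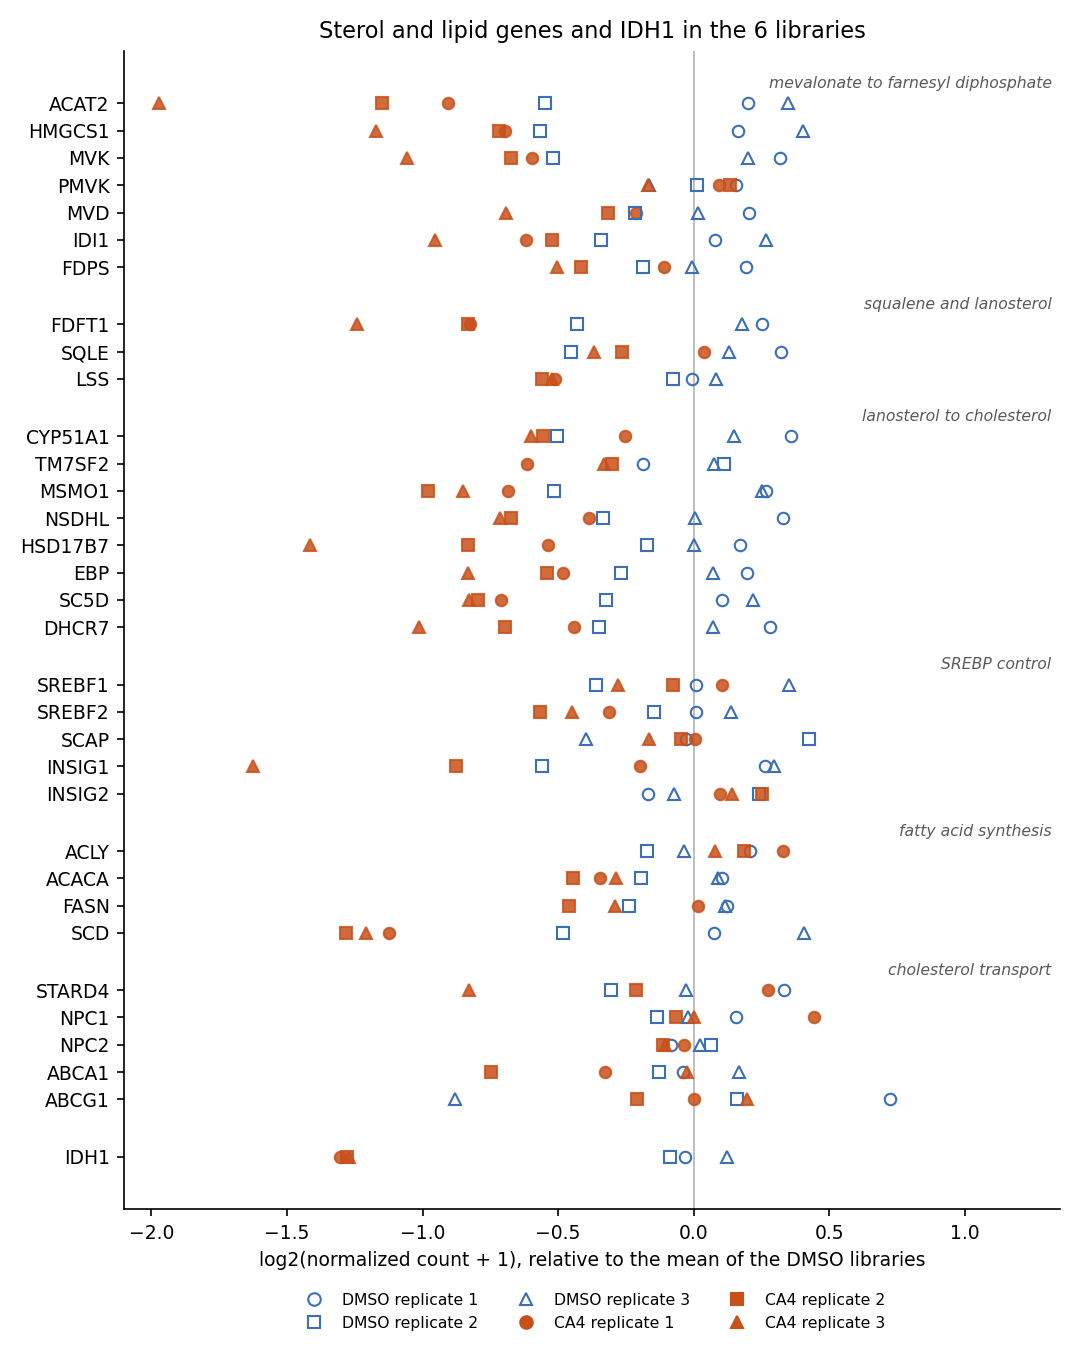
Level of each of the 33 genes in the 6 libraries, as log2(normalized count + 1) relative to that gene's mean over the DMSO libraries, with open blue symbols for DMSO and filled orange symbols for CA4. In 13 of the 18 sterol synthesis genes all CA4 symbols lie left of all DMSO symbols. The transport genes overlap in every case, as most tested genes do.

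Individual libraries took the same place in gene after gene. DMSO replicate 2 was the lowest DMSO library in 16 of the 18 sterol synthesis genes and in 27 of all 33, against 32.4% of tested genes. CA4 replicate 3 was the lowest CA4 library in 15 of the 18, against 32% of tested genes, and CA4 replicate 1 the highest in 15 of the 18, against 33.6%. Averaged over the 18 genes, the level relative to the DMSO mean was 0.19, -0.32 and 0.13 on the log2 scale in DMSO replicates 1, 2 and 3. In CA4 replicates 1, 2 and 3 it was -0.47, -0.59 and -0.85. The groups did not overlap, and DMSO replicate 2 lay nearest to CA4. Over all tested genes the same averages ran from -0.024 to 0.0057. Across the control libraries the 18 genes had a median log2 SD of 0.316 and across the treated libraries 0.208, against 0.191 and 0.178 over all tested genes.

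The endothelial marker sum was highest in CA4 replicate 3, where the sterol genes were lowest. Other libraries did not keep that order. CA4 replicate 1 had a higher sum than CA4 replicate 2 (2014 and 1544) and also a higher sterol level (-0.47 and -0.59). DMSO replicate 1 had both the highest sum (1712) and the highest sterol level (0.19) of the DMSO libraries. A link was not tested. Without CA4 replicate 3 the median difference of the 18 genes was -0.55, against -0.66 with it. In both cases 17 of the 18 were lower. In 13 of the 18 every CA4 library lay below every DMSO library, either with or without it, as in 13.4% of tested genes with all libraries and 17.4% without it. Without DMSO replicate 2 the median was -0.81, and in 17 of the 18 every CA4 library lay below every remaining DMSO library (16.8% of tested genes).

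**Figure D2:**
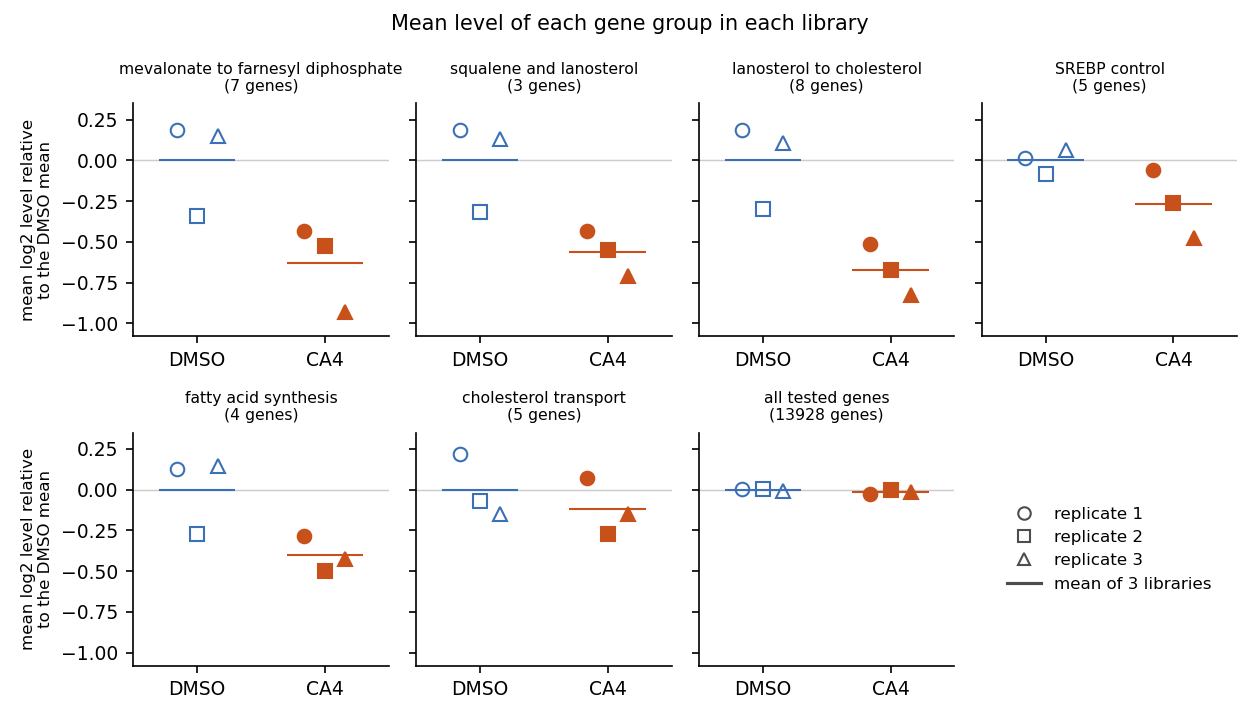
Mean log2(normalized count + 1) of the genes in each role, relative to the mean of the DMSO libraries, for each library. In the sterol synthesis roles DMSO replicate 2 lies nearest to the CA4 libraries and CA4 replicate 3 is the lowest.

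The 7 members on the way from acetyl-CoA to farnesyl diphosphate had a median difference of -0.70, and 6 of the 7 were lower, but 0 passed the test. All 6 were lower at an unadjusted p below 0.05 by limma, as were 11% of all tested genes. ACAT2, the cytosolic thiolase that joins acetyl-CoA units, lay at 936, 557 and 1039 normalized counts in the DMSO libraries and at 435, 367 and 207 after CA4, here and below in the order of replicates 1, 2 and 3. Every CA4 value was below every DMSO value, and CA4 replicate 3 was the lowest of the 6. The CA4 mean was 39.9% of the DMSO mean, a log2 difference of -1.34 (95% interval -2.09 to -0.59), and the limma adjusted p was 0.0576. ACAT2 shares 26.5% of its exon bases with SOD2 on the opposite strand (GENCODE 29). The use of strand in the authors' counting is not given in the sources used here, and the SOD2 mean went in the other direction, from 2375 ± 548 in the control libraries to 4448 ± 244 after CA4 (SD, n = 3 each).

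HMGCS1, which makes HMG-CoA, lay at 3113, 1878 and 3681 normalized counts in DMSO and 1716, 1692 and 1233 in CA4. For MVK, mevalonate kinase, the DMSO values were 645, 359.9 and 593 and the CA4 values 341, 323 and 247. IDI1, the isomerase that makes dimethylallyl diphosphate, had 1237, 924 and 1408 in DMSO and 764, 816 and 604 in CA4. In these 3 genes the groups did not overlap, but DMSO replicate 2 stood well below the other DMSO libraries and close to the CA4 values. Their log2 differences were -0.86, -0.78 and -0.70, with limma adjusted p-values of 0.0921, 0.106 and 0.0703.

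MVD, the decarboxylase that ends the mevalonate steps, and FDPS, farnesyl diphosphate synthase, overlapped between groups. Mean normalized counts of MVD were 1187 ± 172 with DMSO and 898 ± 149.5 with CA4, and those of FDPS 1799 ± 237 and 1419.6 ± 211 (SD, n = 3 each). Their log2 differences were -0.41 (95% interval -0.78 to -0.038) and -0.34 (-0.67 to -0.022). PMVK, phosphomevalonate kinase, was the exception among the 7. It lay at 310.0, 280.5 and 248 in DMSO and 297, 305 and 247 in CA4, and its log2 difference was 0.019 (95% interval -0.32 to 0.36). That sign changed to -0.082 when libraries were scaled to the same total.

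Of the 3 genes from farnesyl diphosphate to lanosterol, FDFT1 and LSS fell and SQLE overlapped. FDFT1 (ENSG00000079459), squalene synthase, which commits farnesyl diphosphate to sterols, lay at 1707, 1062 and 1619 normalized counts in DMSO and 808, 804 and 604 in CA4. Every CA4 library was below every DMSO library. The mean fell from 1463 ± 349.6 to 739 ± 117 (SD, n = 3 each), a log2 difference of -0.97 ± 0.20 (SE) with a limma adjusted p of 0.0415. LSS (ENSG00000160285, chr21:46188446-46228774 on GRCh38.p14), lanosterol synthase, which folds oxidosqualene into the sterol ring system, lay at 3203, 3056 and 3409.9 in DMSO and 2259.6, 2183 and 2241 in CA4. Both groups were tight and the gap between them was larger than the spread of either. The mean fell from 3223 ± 178 to 2228 ± 39.8 (SD, n = 3 each), a log2 difference of -0.53 ± 0.08 with a limma adjusted p of 0.0156. With 1 library left out, the FDFT1 call held only without DMSO replicate 2 (limma adjusted p 0.0373), and the other 5 fits gave 0.0653 to 0.151. For LSS it held without DMSO replicate 1 (0.0206) and without CA4 replicate 2 (0.0420), and without each of the others it gave 0.0510 to 0.0715.

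SQLE, squalene epoxidase, is the oxygen-requiring step between those enzymes. It lay at 2548, 1489 and 2229 normalized counts in DMSO and 2089.5, 1698 and 1580.5 with CA4. The lowest of the 6 was DMSO replicate 2 and the next lowest CA4 replicate 3, so the groups overlapped. The log2 difference was -0.20 (95% interval -0.67 to 0.28, limma adjusted p 0.612).

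The LSS promoter is shown because LSS is among the members that fell. The sequence is the 250 bases before the RefSeq start (GRCh38.p14), 5′ to 3′ on the gene's own strand, in lower case. Capitals mark matches on either strand to CCAAT, the box bound by NF-Y, to GGGCGG, the GC box bound by SP1-like factors, and to TCACNCCAC, a core of the sterol regulatory element that SREBP binds. Both NF-Y and SP1 are known partners of SREBP at sterol genes.
LSS, chr21:46228775-46229024, minus strand: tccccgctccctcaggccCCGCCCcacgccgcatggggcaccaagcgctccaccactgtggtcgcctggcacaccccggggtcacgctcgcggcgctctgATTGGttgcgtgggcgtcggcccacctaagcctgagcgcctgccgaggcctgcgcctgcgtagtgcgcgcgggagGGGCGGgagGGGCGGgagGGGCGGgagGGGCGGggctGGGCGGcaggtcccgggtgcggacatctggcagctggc

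All 8 genes from lanosterol to cholesterol had lower means in CA4, with a median log2 difference of -0.67. By limma 1 of the 8, SC5D, fell, against 1.97% of all tested genes, and 7 were lower at an unadjusted p below 0.05, against 11%. In 7 every CA4 library lay below every DMSO library, against 13.4%. SC5D (ENSG00000109929, chr11:121292771-121313410), the desaturase that sets the ring double bond late in the route, lay at 751, 558 and 815 normalized counts in DMSO and 427, 403 and 393 with CA4. The CA4 libraries lay close together and all under the lowest DMSO library. The mean fell from 708 ± 134 to 408 ± 17.4 (SD, n = 3 each), a log2 difference of -0.78 ± 0.15 (SE) with a limma adjusted p of 0.0346. That call held without DMSO replicate 2 (0.0332) and was lost without each of the other libraries, where the adjusted p was 0.0580 to 0.127. The SC5D promoter, upstream of the first of its RefSeq starts and marked as for LSS, reads as follows.
SC5D, chr11:121292521-121292770, plus strand: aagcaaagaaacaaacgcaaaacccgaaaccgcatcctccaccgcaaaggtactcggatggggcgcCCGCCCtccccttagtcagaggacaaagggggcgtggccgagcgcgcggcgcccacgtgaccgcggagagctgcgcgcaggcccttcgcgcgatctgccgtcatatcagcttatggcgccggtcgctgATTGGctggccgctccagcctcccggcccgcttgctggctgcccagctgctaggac

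HSD17B7, the ketosteroid reductase of the demethylation steps, lay at 259.8, 205 and 231 normalized counts in DMSO and 159, 129 and 85.8 in CA4. Its groups did not overlap, and CA4 replicate 3 was lowest of all. Of its 50-base words 13.6% also occur in the pseudogene HSD17B7P2, which was at 0 in all libraries, so that its count is uncertain. MSMO1, the methyl oxidase of the same steps, lay at 3752, 2180.2 and 3711 in DMSO and 1942, 1579.8 and 1729 in CA4. DMSO replicate 2 stood apart from the other DMSO libraries. The MSMO1 log2 difference was -0.84 with a limma adjusted p of 0.0641, and of the 6 fits with 1 library left out it passed in 1, without DMSO replicate 2 (0.0237), while the other 5 gave 0.105 to 0.195. For HSD17B7 the corresponding values over all 6 libraries were -0.93 and 0.0709.

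DHCR7, the reductase that ends one branch, lay at 2829, 1827 and 2447 normalized counts in DMSO and 1714, 1436 and 1154 in CA4, with a log2 difference of -0.72 and a limma adjusted p of 0.0791. EBP, the sterol isomerase, had means of 534 ± 85.8 and 346 ± 43.8, and NSDHL, the decarboxylating dehydrogenase, 639 ± 146 and 418 ± 53.9 (SD, n = 3 each). Their differences were -0.62 and -0.59 on the log2 scale, with limma adjusted p-values of 0.0713 and 0.108. None of these 3 overlapped between groups and none passed the test. TM7SF2, a C14 sterol reductase, also did not overlap, at 179, 219.7 and 215 in DMSO and 132, 165 and 162 in CA4, and had a difference of -0.42 (0.186). CYP51A1, which removes the 14-alpha methyl group of lanosterol, was the gene of the 8 that overlapped, because its DMSO replicate 2 (3374, 1854 and 2918, in replicate order) lay among the CA4 values (2206, 1789.6 and 1737). Its log2 difference was -0.47 (95% interval -0.97 to 0.033). CYP51A1 shares 79.4% of its exon bases with the annotated gene AC000120.2 on the same strand, which lay at a mean of 3.76 normalized counts in DMSO and 4.97 in CA4.

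The 5 SREBP control genes had a median log2 difference of -0.083, and 0 passed the test. By limma at an unadjusted p below 0.05, 2 of the 5 were lower and 0 higher, against 11% and 11.9% of all tested genes. SREBF2, which encodes the SREBP that mainly drives sterol synthesis, lay at 5427, 4873 and 5938 normalized counts in DMSO and 4343, 3638 and 3952 in CA4. All CA4 values were below all DMSO values, at 73.5% of the DMSO mean. The log2 difference was -0.44 (95% interval -0.68 to -0.20) with a limma adjusted p of 0.0541. SREBF1, which encodes the SREBP forms tied mainly to fatty acid synthesis, lay at 1171, 906 and 1484 in DMSO and 1251, 1104 and 959 with CA4. The SREBF1 groups overlapped, with a difference of -0.083 (95% interval -0.52 to 0.35), and its sign turned without CA4 replicate 3 (0.015) or DMSO replicate 3 (0.092).

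INSIG1, the SREBP target that retains SCAP, lay at 1963, 1108 and 2006 normalized counts in DMSO and 1424, 889 and 529 in CA4. It had the widest CA4 range of the 5, from CA4 replicate 1 above DMSO replicate 2 down to CA4 replicate 3. The log2 difference was -0.90 (95% interval -1.76 to -0.038, limma adjusted p 0.201). INSIG2, its relative, had means of 659 ± 101 and 734 ± 40.7 and a difference of 0.16 (-0.13 to 0.46). SCAP had means of 1369 ± 392 and 1272 ± 75.5 (SD, n = 3 each) and a difference of -0.068 (-0.51 to 0.38), which was 0.14 without DMSO replicate 2.

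Among the 4 fatty acid genes, SCD fell and had the largest log2 decrease of the members that passed the test. SCD (ENSG00000099194, chr10:100347233-100364826), the desaturase that makes oleate from stearate, lay at 18401, 12497 and 23128 normalized counts in DMSO and 8008, 7179 and 7558 with CA4. The DMSO libraries were spread widely, while the CA4 libraries were close together and all below the lowest DMSO library. The mean fell from 18009 ± 5326 to 7582 ± 415 (SD, n = 3 each), which is 42.1% of the DMSO mean, a log2 difference of -1.20 ± 0.20 (SE) with a limma adjusted p of 0.0215. With 1 library left out, the call held without DMSO replicate 1 (0.0368) and without DMSO replicate 2 (0.0102), and the other 4 fits gave 0.0572 to 0.0806. The SCD promoter is shown with the marks used for LSS.
SCD, chr10:100346983-100347232, plus strand: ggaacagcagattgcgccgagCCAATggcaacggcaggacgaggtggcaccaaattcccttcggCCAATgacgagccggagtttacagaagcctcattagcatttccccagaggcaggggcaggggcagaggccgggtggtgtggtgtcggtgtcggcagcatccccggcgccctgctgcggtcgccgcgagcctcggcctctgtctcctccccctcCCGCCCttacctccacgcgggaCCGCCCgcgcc

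ACACA, acetyl-CoA carboxylase, which commits carbon to fatty acids, lay at 2542, 2068 and 2518 normalized counts in DMSO and 1862, 1738 and 1938 in CA4. Its groups did not overlap, and the log2 difference was -0.36 with a limma adjusted p of 0.0923. FASN, fatty acid synthase, lay at 7847, 6108 and 7806 in DMSO and 7277, 5234 and 5895 in CA4, with overlap and a difference of -0.25 (95% interval -0.59 to 0.099). ACLY, which makes cytosolic acetyl-CoA from citrate for both routes, had the highest positive difference of the 32 at 0.20 (-0.071 to 0.47), from 10126, 7785 and 8539.5 in DMSO to 11011, 9960.2 and 9261 with CA4. The ACLY groups overlapped as well. Differences between these genes were not tested.

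**Figure D3:**
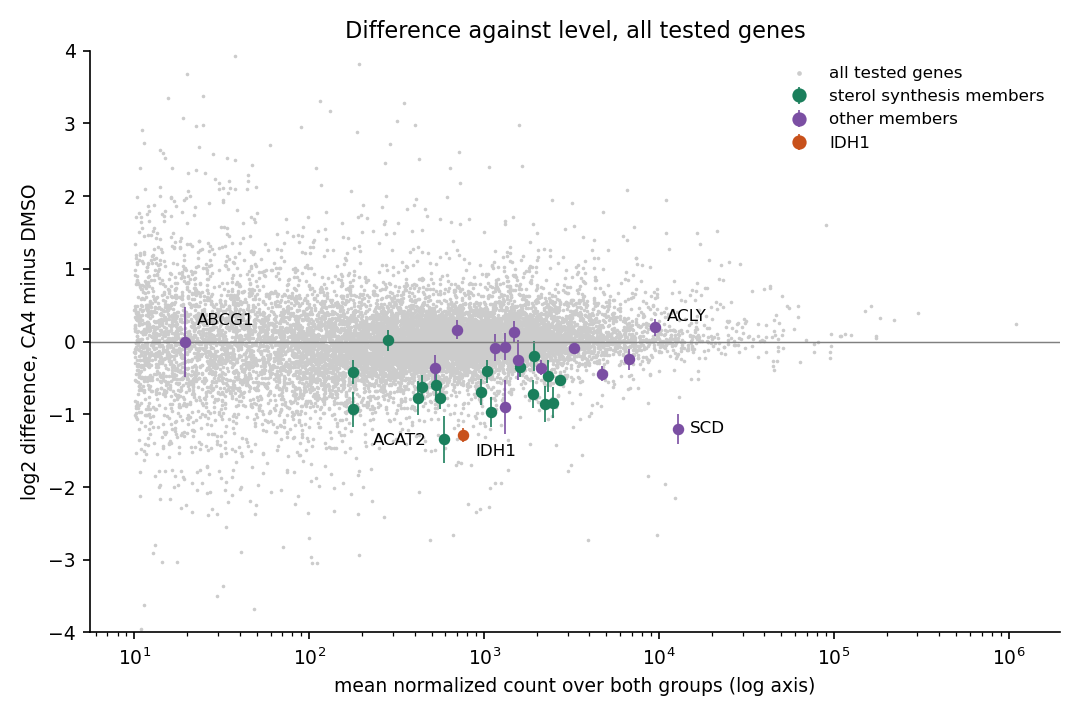
Log2 difference (CA4 minus DMSO, vertical axis) against the mean normalized count over both groups (horizontal log axis) for the tested genes in grey and the 33 genes in colour with vertical bars of 1 SE. Another 19 genes lie beyond the vertical limits of 4. Of the 18 sterol synthesis genes 17 lie below 0, and SCD lies at -1.20.

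Cholesterol transport genes overlapped between groups in all 5 cases, as most tested genes do. Of all tested genes 13.4% had every CA4 library below every DMSO library and 14.3% above. By limma 0 of the 5 passed the test, against 1.97% lower and 2.97% higher among all tested genes. At an unadjusted p below 0.05 the number was also 0, against 11% and 11.9%. STARD4, which carries cholesterol between membranes and is an SREBP target, lay at 2066, 1327 and 1606 normalized counts in DMSO and 1980.3, 1413 and 923 in CA4, a difference of -0.26 (95% interval -0.90 to 0.39). CA4 replicate 3 alone lay below the DMSO range, and without it the difference was 0.029. NPC1, which moves cholesterol out of lysosomes, had means of 1402 ± 145 and 1545 ± 309, and its soluble partner NPC2 had 3370.0 ± 177 and 3174 ± 95.1 (SD, n = 3 each). Their differences were 0.13 (-0.22 to 0.48; -0.031 without CA4 replicate 1) and -0.086 (-0.26 to 0.091). ABCA1, the LXR target that exports cholesterol to lipid-poor apolipoproteins, had means of 587 ± 63.0 and 463 ± 114 and a difference of -0.37 (-0.81 to 0.074). ABCG1, a second exporter, was barely read, at 30.9, 20.6 and 9.50 in DMSO and 18.4, 15.7 and 21.2 in CA4, and its interval of -1.12 to 1.11 spans both directions.

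IDH1 (ENSG00000138413, chr2:208236227-208255071 on GRCh38.p14) lay at 1042, 1002 and 1159 normalized counts in DMSO and 431, 439 and 441 with CA4. The CA4 libraries were nearly equal and far below the DMSO libraries. The means were 1068 ± 81.7 and 437 ± 5.36 (SD, n = 3 each), so that CA4 stood at 40.9% of DMSO, a log2 difference of -1.28 ± 0.10 (SE). Ordered from the lowest difference, IDH1 was at place 235 of the 13928 tested genes. Over 17 other ways of processing, with each library left out among them, its difference ran from -1.39 to -1.22. No test is given, since this fall is why IDH1 was included.

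None of the other isocitrate dehydrogenases passed the test. Values in parentheses after a log2 difference are limma adjusted p-values here and in the lists that follow. IDH2, the mitochondrial NADP enzyme, lay at 1523, 1878 and 1704 normalized counts in DMSO and 1517, 1958 and 1666 in CA4, a log2 difference of 0.0076 (limma adjusted p 0.981). IDH3A, the catalytic subunit of the mitochondrial NAD enzyme, lay at 583, 484 and 502 in DMSO and 839.9, 682 and 774 in CA4, with every CA4 library above every DMSO library and a difference of 0.55 (0.0501). Its fellow subunits IDH3B and IDH3G had differences of -0.012 (0.956) and 0.26 (0.197). The IDH3B groups overlapped, and IDH3G was higher in every CA4 library. PGD, an NADPH-making enzyme of the pentose phosphate route, averaged 2909.7 ± 177 normalized counts across the control libraries and 2317 ± 91.4 across the treated ones (SD, n = 3 each). Its groups did not overlap, with a log2 difference of -0.33 (0.0602), and it did not pass the test. ME1, the cytosolic malic enzyme, had a difference of -0.048 (0.854).

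**Figure D4:**
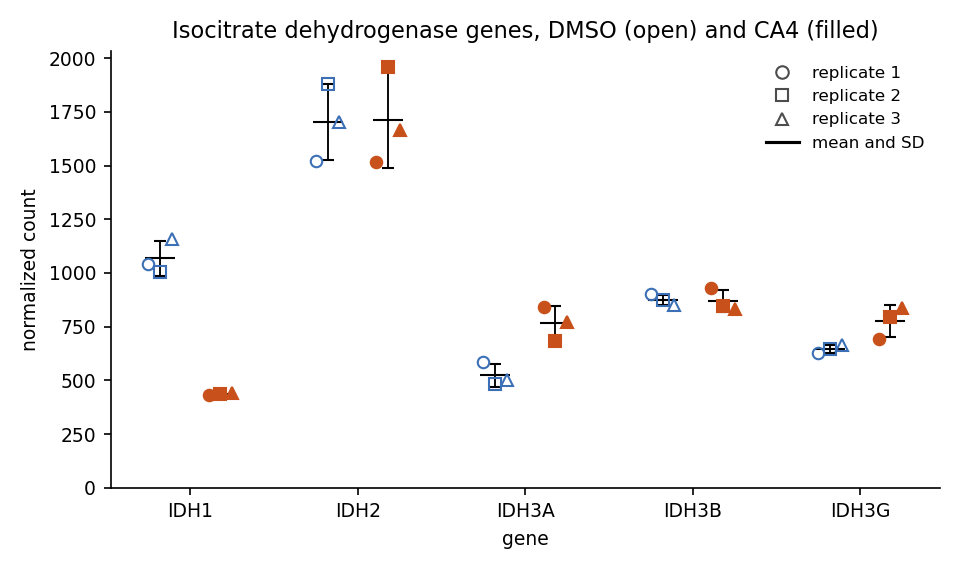
Normalized counts (vertical axis) of IDH1 and of the other isocitrate dehydrogenase genes in each library, with DMSO (open) and CA4 (filled) side by side and bars for the mean and SD over 3 libraries. IDH1 is lower in all CA4 libraries, IDH2 overlaps, and IDH3A is higher in all CA4 libraries.

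Other genes of these pathways were taken from lists chosen by function, 103 genes of which 99 were tested. By limma 5 fell and 3 rose, against 1.97% and 2.97% of all tested genes, the shares against which the counts of each list below also stand, and the median log2 difference of the 99 was -0.055. Of 17 further sterol and SREBP processing genes 2 fell and 0 rose. ERG28, a scaffold of the sterol demethylation enzymes, fell from 548 ± 26.2 to 338 ± 35.2 normalized counts (-0.70, limma adjusted p 0.0219). MMAB, a cobalamin enzyme whose gene lies head to head with MVK, fell from 574 ± 83.2 to 333 ± 36.6 (-0.78, 0.0317). Of 19 tested genes of fatty acid activation, elongation and desaturation 2 fell and 0 rose. FADS2, which desaturates polyunsaturated fatty acids, fell from 6079.9 ± 711 to 3276 ± 348 (-0.89, 0.0117), and HACD3, a dehydratase of elongation, fell from 2466 ± 132 to 1897 ± 60.8 (-0.38, 0.0408).

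In the branch that uses farnesyl diphosphate for other isoprenoids, 2 of 15 genes rose and 0 fell. DHDDS, which builds the dolichol chain, rose from 933 ± 72.2 to 1629 ± 157 normalized counts (0.80, limma adjusted p 0.0126), and RABGGTB, a subunit of the enzyme that prenylates Rab proteins, rose from 1049.8 ± 114 to 1506 ± 126 (0.52, 0.0435). Of 18 further transport genes 0 passed the test, and 4 were lower and 1 higher at an unadjusted p below 0.05, against 11% and 11.9% of all tested genes. Of 22 isocitrate and NADPH genes only MTHFD2, the mitochondrial folate enzyme, passed, rising from 1447 ± 266 to 4378 ± 1569 (1.55, 0.0201). With 1 library left out, FADS2 passed in 5 of 6 fits and was lost without DMSO replicate 3 (0.0629). MTHFD2 passed in 3, without CA4 replicate 2, CA4 replicate 3 or DMSO replicate 1. ERG28 and DHDDS passed in 2, without CA4 replicate 2 or DMSO replicate 1, and RABGGTB in 1, without DMSO replicate 1. MMAB and HACD3 passed in 0, and the highest adjusted p over the 6 fits was 0.0797 for MTHFD2, 0.0997 for ERG28, 0.0558 for DHDDS, 0.153 for RABGGTB, 0.126 for MMAB and 0.136 for HACD3.

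Promoter sequence did not enter the rule by which the genes were taken. RefSeq promoters of GRCh38.p14, 250 bases before to 50 after each start, were matched for 28 of the 33 genes, with 39 starts. The NF-Y box CCAAT was in the promoters of 21 of the 28 genes (75%), against 43.1% of tested genes with a promoter, and in 25 of the 39 promoters (64.1%), against 34.5% of the promoters of tested genes and 34.6% of all 35116 promoters. The GC box GGGCGG was in 27 of the 28 genes (96.4%), against 76.6%, and in 36 of the 39 promoters (92.3%), against 65.0% of the promoters of tested genes and 45.0% of all promoters. Genes here without an NF-Y box in the window were ABCA1, CYP51A1, INSIG2, NPC1, PMVK, SCAP and SREBF1, and in 0 of these 7 did all CA4 libraries lie below all DMSO libraries. Of the 21 genes with the box, 15 had all CA4 libraries below (14 of 20 when IDH1 is left out). Among all tested genes with a promoter the same held for 16.2% of the 4470 with an NF-Y box and 12.5% of the 5899 without one. The median log2 difference of the 20 was -0.61 and of the 7 without the box -0.068, against -0.031 and -0.0033 over all such genes. These are descriptions with no test, on genes chosen with this comparison known. The split by box in part follows role, since of the 7 only CYP51A1 and PMVK are sterol synthesis genes. ABCA1 and NPC1 belong to transport, and INSIG2, SCAP and SREBF1 to SREBP control. ACAT2, FDFT1, SQLE, FASN and ABCG1 had no matched promoter and are outside these counts. Of them ACAT2 and FDFT1 had all CA4 libraries below all DMSO libraries. Both strands were searched, matches of a motif may overlap each other or another motif, and a match describes letters only.

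The full sterol regulatory element core TCACNCCAC was found in 1 of the 39 promoters (2.56%), that of SREBF2, against 1.13% of all promoters and 1.1% of the promoters of tested genes. With at most 1 mismatch it was in 18 of the 39 promoters (46.2%), against 24.5% of all promoters and 24.4% of those of tested genes. The SREBF2 promoter is shown for that match, which lies 133 to 125 bases before the start, with an NF-Y box downstream of it. The MVK promoter is shown because it has 5 NF-Y boxes and because MMAB starts 290 bases away on the other strand, so that the MVK and MMAB windows share 211 bases. IDH1 is shown upstream of its outer start, where NF-Y boxes lie between GC boxes. Those 3 were chosen after values and motifs were seen. Marks are as for LSS. The last GC box of SREBF2 runs from -5 to 0 relative to the start, so its final base lies past the printed stretch.
SREBF2, chr22:41832855-41833104, plus strand: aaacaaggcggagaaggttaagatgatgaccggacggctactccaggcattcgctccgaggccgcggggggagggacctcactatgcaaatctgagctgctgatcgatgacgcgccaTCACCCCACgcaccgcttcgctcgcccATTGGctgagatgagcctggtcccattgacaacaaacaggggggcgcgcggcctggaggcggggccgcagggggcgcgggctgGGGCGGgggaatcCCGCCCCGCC
MVK, chr12:109573544-109573793, plus strand: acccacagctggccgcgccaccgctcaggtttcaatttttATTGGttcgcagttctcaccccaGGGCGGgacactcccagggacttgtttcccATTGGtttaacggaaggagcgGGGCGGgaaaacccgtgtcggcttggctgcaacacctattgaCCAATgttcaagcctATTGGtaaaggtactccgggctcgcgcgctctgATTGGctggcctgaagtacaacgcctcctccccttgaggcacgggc
IDH1, chr2:208255072-208255321, minus strand: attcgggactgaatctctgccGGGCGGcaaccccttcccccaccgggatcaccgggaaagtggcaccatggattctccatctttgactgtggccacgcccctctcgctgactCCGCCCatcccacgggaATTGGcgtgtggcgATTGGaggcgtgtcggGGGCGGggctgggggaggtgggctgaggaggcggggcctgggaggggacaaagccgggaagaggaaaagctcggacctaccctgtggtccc

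**Figure D5:**
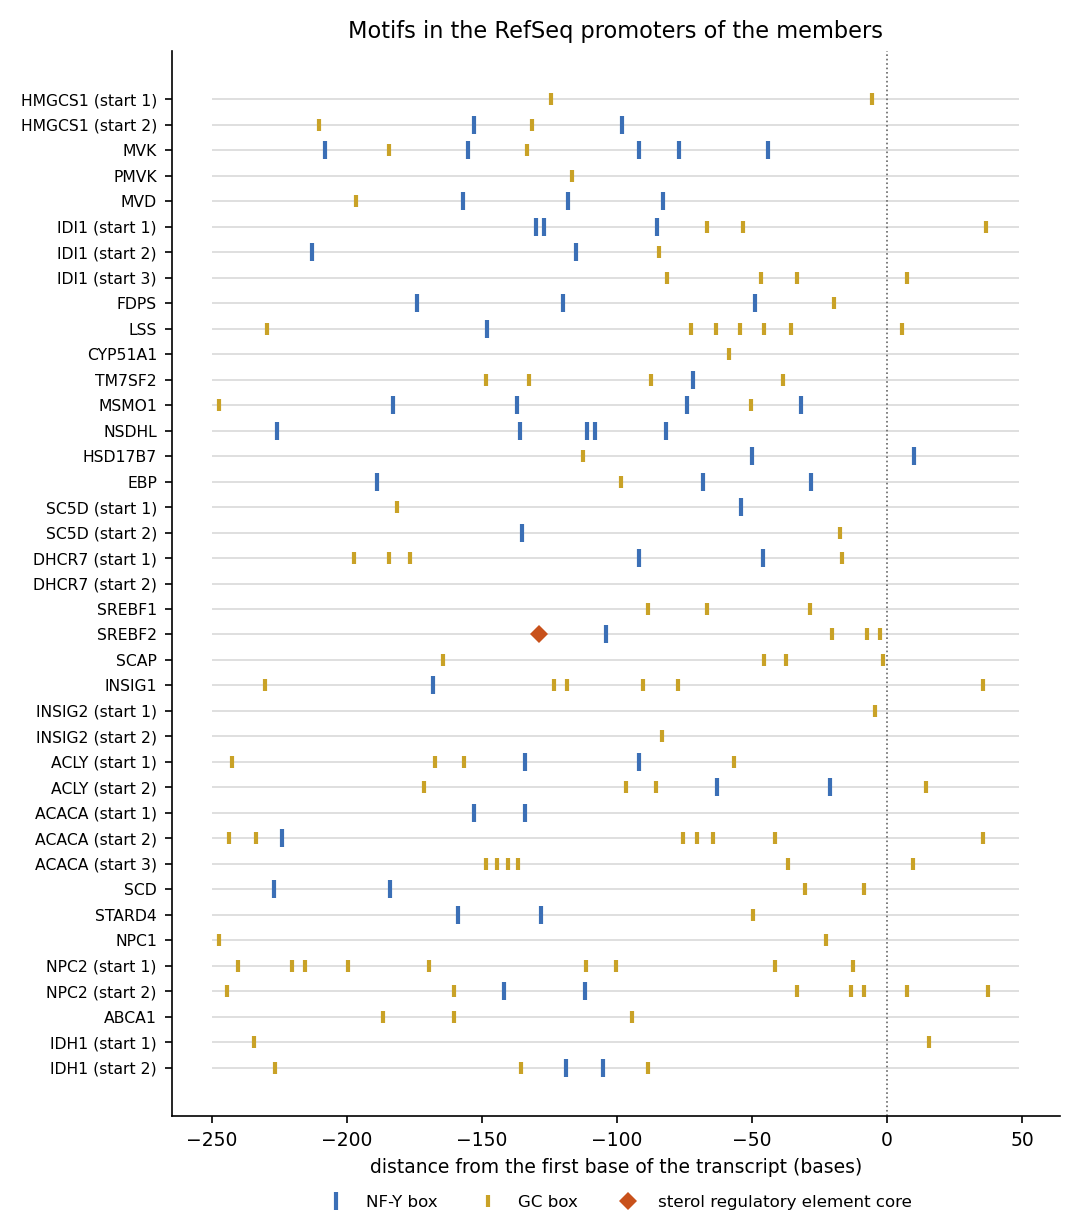
Positions of the NF-Y box, the GC box and the sterol regulatory element core in the promoters of the genes with a RefSeq entry, in bases from the start site. The sterol regulatory element core appears in SREBF2 alone, and NF-Y boxes appear in 21 of the 28 genes.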

How the data were processed

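The deposited table holds a signal, reads per gene that the authors scaled by 1 factor per library, called normalized counts here. Per the submitters' processing notes, Trim Galore 0.6.6, FastQC 0.12.1, Salmon 1.8.0, STAR 2.7.9a, DESeq2 1.44.0 and GRCh38 were used. The annotation release is not given in the sources used here. In each column 100% of values were whole multiples of the value of 1 read (tolerance 0.01), and the recovered reads, 19524936 to 22538004 per library, may be rounded estimates.

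Members and lists were chosen with earlier results of these data known. Genes with a mean of at least 10 were tested as log2(normalized count + 1), with a pseudocount of 1, by limma 3.58.1 in R 4.3.3 with a variance trend. Two-sided p-values were adjusted over all 13928 genes (Benjamini-Hochberg) and the threshold was 0.05. A fold change on this scale understates that of low genes. Every member is named, and from the other lists up to 4 genes past the threshold, apart from some results that are not reported here. Alternatives were edgeR 4.0.16 and DESeq2 1.42.0 on recovered reads, pseudocounts of 0.1 and 5, other filters and scalings, no trend, the replicate block and each library left out. The scripts were tested on simulated data. Shared exons and 50-base words came from GENCODE 29, promoters and gene positions from RefSeq. At this depth a value of 0 allows up to 3 reads, for counting error only.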

Additional observations from a re-analysis of the deposited data

How the results depend on the processing

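IDH1 and the 4 members that fell kept their direction in all 17 alternatives. FDFT1, LSS, SC5D and SCD kept their calls in 10 of the 11 that keep all libraries, and lost them without limma's variance trend, where 0 members passed (0.373% of all tested genes). Against 4 members called lower, DESeq2 on recovered reads gave 15 (5.07% of all tested genes were called lower), scaling to the same total 10 (3.76%) and edgeR 4 (1.82%). Leaving out 1 library gave 0 to 4 (0.223% to 2.79%). SREBF2 passed in 6 of those 11. Against 688 genes called in all, DESeq2 gave 1613, no trend 103 and the fits with 1 library left out 81 to 994. Among other pathway genes called lower (5), DESeq2 gave 13, no trend 0, quantile normalization 9 (1.89% of all tested genes), the same total 11, and leaving out 1 library 0 to 5, against the shares above. Among those called higher (3), DESeq2 gave 7 (6.51%), a mean of at least 50 gave 5 (4.11%), no trend 0 (0.366%), and leaving out 1 library 0 to 7 (0.359% to 4.34%).

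With the replicate block 15 members were called lower (8.16% of all tested genes were), 2397 genes in all, and 18 and 10 other pathway genes were called lower and higher (9.05% of all tested genes were higher). The main fit has no block, because the labels do not say that libraries of the same number are pairs. Deviations of same-numbered libraries correlated at 0.202, 0.159 and 0.0588, and those of differently numbered ones at -0.214 to 0.0741. For each DMSO replicate the same-numbered CA4 library correlated most. Whether the numbers mark pairs was not settled.

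Signs near 0 turned. ABCG1 was at 0.0048 with a pseudocount of 0.1 and 0.015 with quantile normalization, and PMVK at -0.014 with the same 75th percentile and -0.082 with the same total. With 1 library left out ABCG1 ran from -0.44 to 0.36, PMVK from -0.065 to 0.11, NPC1 from -0.031 to 0.22, SCAP from -0.27 to 0.14, SREBF1 from -0.26 to 0.092 and STARD4 from -0.52 to 0.029. Scaling to the same total shifted the median of all genes by -0.10, and 34.8% of calls were then higher, against 60.0%. Fewer libraries leave less power; the cause of the other shifts was not tested.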
